A study of Mus musculus with 48 samples.

Results

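Line X50 is a transgenic mouse line in which exon 1 of huntingtin (Htt), carrying 18 glutamines, was joined to a nuclear localization signal (NLS), and it was profiled at 16 months of age. Its members were the columns of the deposited array table that the labels give to this line and age, 6 of 48 arrays, with 1 mouse per array: 3 transgenic males and 3 nontransgenic males, which the series' design text calls normal littermates. The study set such lines side by side to ask what a polyglutamine stretch does when it is directed into or out of the nucleus, and used RNA from the cerebellum on Affymetrix MG-U74Av2 arrays. The comparisons most like X50 were S46 at 10 months (3 transgenic and 3 control mice, all female) and S25 at 3 months (3 transgenic males against 1 male and 2 female controls of 2.5 to 3 months), both with the NLS on 142 glutamines. A39 at 10 to 10.5 months (2 transgenic males and 1 transgenic female against 3 male controls) carried 142 glutamines with a nuclear exclusion signal (NES). The promoter driving the transgenes, the strain background and the level or location of the transgene's protein are not given in the sources used here, and each line stands for its own insertion. Replicates are separate animals of 1 line each, so line, glutamine number and age differ together between these comparisons. Sex differs too, fully against S46 and in part against S25 and A39, where it is also unbalanced between genotypes. Against A39 the signal sequence differs as well.

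Huntingtin is a large cytoplasmic scaffold protein whose first exon encodes a run of glutamines. Expansion of that run causes Huntington's disease, and exon 1 fragments with a long run gather in the nucleus and alter transcription in neurons. A run of 18 glutamines lies in the normal range of the human protein, so a line of this kind serves to separate the nuclear signal and the fragment from the expanded repeat. In the cerebellum the output neurons are Purkinje cells, large GABAergic cells rich in calcium buffers, calcium pumps and inositol phosphate signalling. They receive input from granule cells, the small glutamatergic neurons that make up most cells of the tissue.

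The arrays held cerebellar RNA by their defining markers. Calb1, the Purkinje cell calcium buffer calbindin, had signals of 7186, 8233 and 8493 in X50 transgenic mice, against 7614, 7424 and 7430 in X50 controls. Gabra6, a GABA receptor subunit of granule cells, lay between 10403 and 10921 in transgenic mice, against 11273 to 12170 in controls, and the 21 control arrays of the other groups lay between 8395 and 15424. The 6 arrays had median signals of 231 to 240 and were scanned on 1 day from 1 chip lot. The 3 controls ran on fluidics station 1, as did transgenic mouse 1, whereas transgenic mice 2 and 3 ran on station 2. The start time recorded for the fluidics run coincided with genotype in all 6 arrays, so that run and genotype cannot be told apart. The ratio of 3' to 5' signal of Gapdh was 0.910, 0.941 and 0.883 in transgenic mice, against 0.840, 0.822 and 0.800 in controls, and these groups did not overlap. The same ratio of actin was 1.47, 1.35 and 1.44 in transgenic mice, against 1.495, 1.32 and 1.38 in controls, and these groups overlapped.

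Did the NLS on exon 1 with 18 glutamines change the cerebellar transcriptome of mice at 16 months? Among 7453 probe sets tested, 2 passed the test (0.0268%), both lower in X50 transgenic mice, and both belong to mitochondrial ATP production: Atp5md, a small subunit of the mitochondrial ATP synthase, and Ndufb9, an accessory subunit of complex I. No probe set rose past the threshold (0 called higher, 0% of those tested, by limma with Benjamini-Hochberg adjustment, with 282 higher, or 3.78%, at an unadjusted p below 0.05). At that unadjusted threshold 550 probe sets (7.38%) differed, of which 268 (3.6%) were lower. Transgenic and control mice did not overlap for 1213 probe sets (16.3%), of which 608 (8.16%) were higher and 605 (8.12%) lower in transgenic mice. The log2 differences were small, with a median of 0.0051 and 5th and 95th percentiles of -0.38 and 0.41. Only 31 probe sets (0.416%) differed by 1 or more on the log2 scale, and none of those 31 passed. The median standard error of a log2 difference was 0.19.

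Atp5md lies on chromosome 19. Its signal was 4512, 5414 and 5096 in X50 transgenic mice, against 8757, 8633 and 11262 in X50 controls. Every transgenic mouse lay below every control, and the fitted level fell to 52.8% of the control level (log2 -0.92, SE 0.16, 95% interval -1.25 to -0.59, limma adjusted p = 0.0140, n = 3 and 3). The probe set belongs to a type that can bind several related transcripts, so the value may include near copies of the gene. Ndufb9 lies on chromosome 15 and had signals of 1713, 1920 and 1606 in transgenic mice, against 2766, 2497 and 3314 in controls. The groups did not overlap, and the fitted level fell to 61.6% of the control level (log2 -0.70, SE 0.14, 95% interval -0.98 to -0.42, limma adjusted p = 0.0427). In S46, S25 and A39 the log2 differences of Atp5md were 0.23, 0.10 and 0.06, and those of Ndufb9 were 0.03, 0.35 and 0.13.

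Both calls rested on the spread shared with the other 42 arrays: in a fit of the 6 X50 arrays alone the adjusted p was 0.318 for Atp5md and 0.439 for Ndufb9, and 0 probe sets passed. With the fluidics station as a block the 2 adjusted p values were 0.0695 and 0.0823, and within station 1, where transgenic mouse 1 stands against the 3 controls and is assumed to vary like the other groups, the log2 differences were -1.07 and -0.72 (adjusted p = 0.117 and 0.287). Without control mouse 3, which had the highest signal of both genes, the differences were -0.80 and -0.59 and neither passed (adjusted p = 0.374 and 0.768). Without transgenic mouse 1 (adjusted p = 0.224 and 0.233) or transgenic mouse 3 (0.0930 and 0.380) neither passed. Ndufb9 also missed the threshold without transgenic mouse 2 (0.0596) and without control mouse 1 (0.129).

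**Figure D1:**
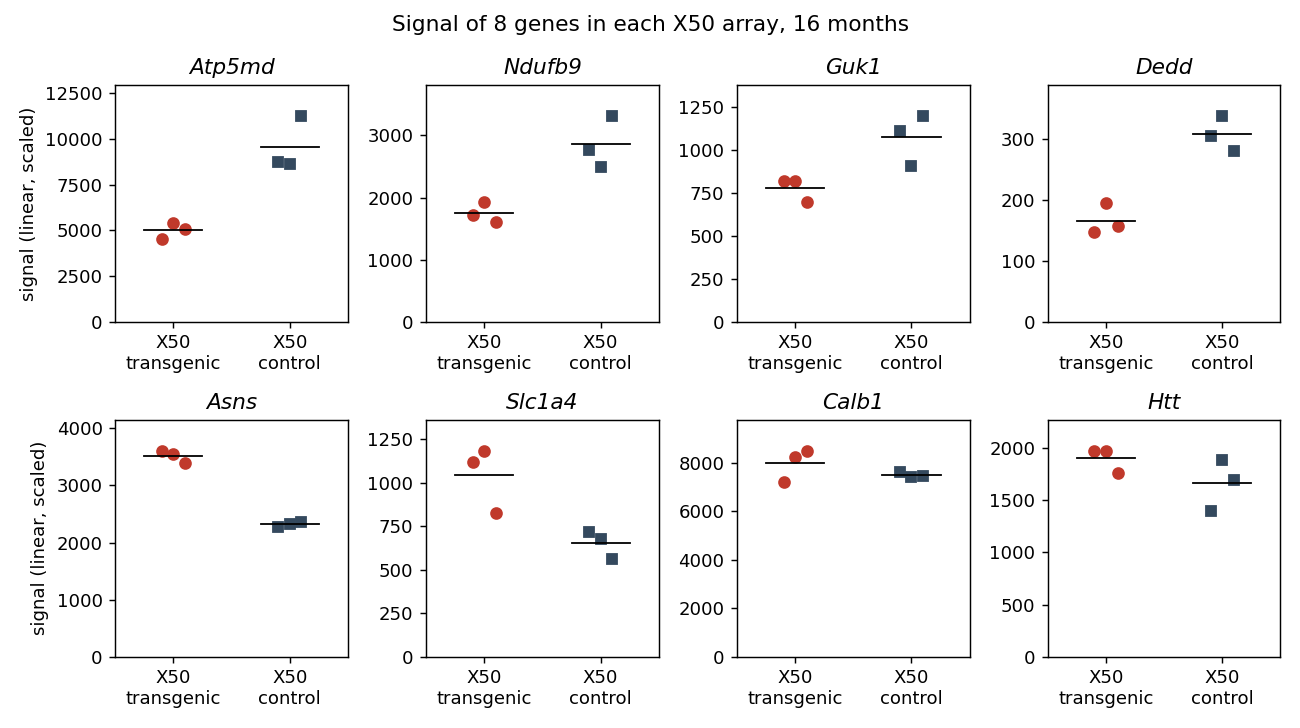
Signal of 8 genes in each X50 array on a linear scale that starts at 0, with transgenic mice on the left and controls on the right of each panel; points are single mice and the line is the mean of 3. Atp5md and Ndufb9, the only 2 that passed the test, lie lower in all 3 transgenic mice, whereas the groups of Calb1 and Htt overlap.

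The probe sets ranked next did not pass. Guk1, guanylate kinase, had signals of 823, 818 and 700 in transgenic mice, against 1112, 909 and 1200 in controls (log2 -0.45, SE 0.10, limma adjusted p = 0.0909). Uqcc2, an assembly factor of complex III, had 1275, 1505 and 1371 in transgenic mice, against 1913, 1997 and 2507 in controls (log2 -0.61, adjusted p = 0.295). Tomm7 and Timm8b, parts of the machinery that imports proteins into mitochondria, had log2 differences of -0.61 and -0.58, and Mrpl24, a protein of the mitochondrial ribosome, had -0.42 (adjusted p = 0.304 for each). For all of these the 3 transgenic mice lay below the 3 controls, as the rule for naming required. The other low ones were Dedd, a death effector domain protein (log2 -0.83, adjusted p = 0.0970), Cops9, a subunit of the COP9 signalosome (-0.57), Hexa, the alpha subunit of lysosomal beta-hexosaminidase (-0.39), Kcnab3, a potassium channel subunit (-0.83), and Hpca, the neuronal calcium sensor hippocalcin (-0.68).

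Respiratory chain subunits carry electrons from NADH and succinate to oxygen and use the proton gradient to make ATP. Of 49 such genes tested, 1 was called lower (Ndufb9) and 0 higher. Atp5md was not in this list, so the values of the list leave it out. Their median log2 difference was -0.17 and 79.6% of them lay below 0, against a median of 0.0039 and 49.2% below 0 over all 5639 genes with 1 probe set each. The 3 transgenic mice lay below the 3 controls for 18 of the 49 (36.7%), against 450 of 5639 genes (7.98%), and above them for 2, against 469 of 5639 (8.32%). At an unadjusted p below 0.05 there were 16 lower and 0 higher, against 201 lower and 211 higher among all 5639. These 49 genes are regulated together and measured on the same 6 arrays, so they are not independent measurements, and the median carries no test.

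Low members came from every complex. In complex I, Ndufv2, a subunit of the NADH-oxidising module, had signals of 3218, 2831 and 2870 in transgenic mice, against 4026, 3662 and 4450 in controls (log2 -0.44, SE 0.14). Ndufb5 had 6197, 7255 and 7112 in transgenic mice, against 7854, 8359 and 9573 in controls (log2 -0.32). In both genes the highest transgenic value lay below the lowest control. Sdhb, the iron-sulphur subunit of complex II, had 2411, 2641 and 2628 in transgenic mice, against 2883, 3158 and 3527 in controls (log2 -0.31). Uqcrq of complex III had a difference of -0.33, and Cox7b and Cox6c of complex IV had -0.37 and -0.22. Atp5e and Atp5c1 of the ATP synthase had -0.44 and -0.25. None of these 8 passed (adjusted p from 0.515 to 0.563), although all 8 had transgenic mice below controls. On the other side of 0, Ndufa1 had low signals of 340, 181 and 226 in transgenic mice, against 175, 137 and 140 in controls (log2 0.62, SE 0.37, adjusted p = 0.788).

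The mean log2 signal of the respiratory chain genes, centred on the control mean, was -0.16, -0.11 and -0.19 in transgenic mice, against -0.05, -0.02 and 0.07 in controls, so the groups did not overlap. The summed signal ran from 162515 to 173340 in transgenic mice, against 178839 to 206723 in controls. The median difference stayed below 0 in all 21 alternative settings, between -0.24 and -0.15, and was -0.24 within station 1. In S46, S25 and A39 the medians of the same genes were 0.05, 0.06 and 0.04. In the tests of the difference between effects, X50 was lower than S25 and than A39 for 1 of the 49, Ndufb9 (limma adjusted p = 0.000800 and 0.0289), and than S46 for 0 of them. Of all probe sets 0.55% were called lower against S25, 0.134% against A39 and 0.0403% against S46. The Gapdh 3' to 5' ratio given above separated the same groups, and its part in this result was not tested.

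**Figure D2:**
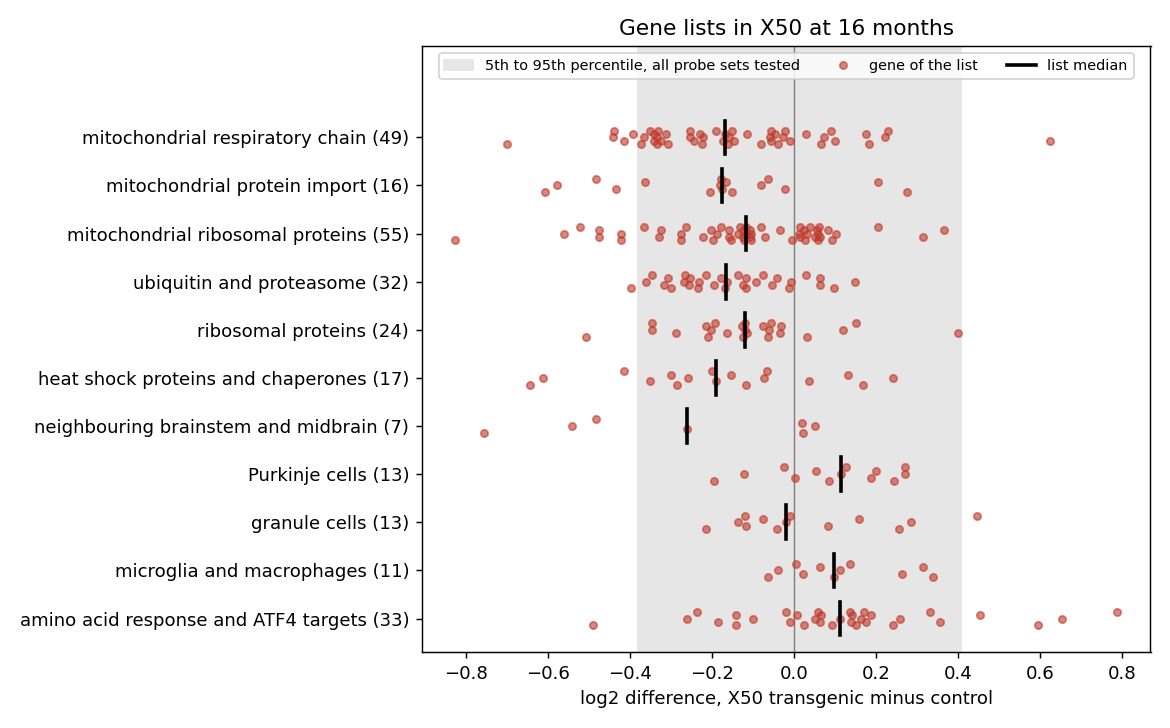
Log2 differences, X50 transgenic minus control, of every gene tested in 11 lists, with the number of genes in brackets; each point is 1 gene, black lines are list medians and the grey band spans the 5th to 95th percentile of all probe sets tested. The mitochondrial, proteasome, ribosomal and chaperone lists have medians between -0.19 and -0.12, and most of their genes lie inside the grey band.

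Other abundant housekeeping machinery lay on the same side. Among 32 genes of ubiquitin and the proteasome, which degrade tagged proteins, 0 were called and 84.4% lay below 0 (median log2 difference -0.17, 5 lower and 0 higher at an unadjusted p below 0.05 by limma). Psma4, a ring subunit of the proteasome core, had 1066, 1057 and 1000 in transgenic mice, against 1464, 1298 and 1275 in controls (log2 -0.36, adjusted p = 0.643). Psmd1, of the regulatory cap, had a difference of -0.40 with overlapping groups (adjusted p = 0.6003). Of 24 cytoplasmic ribosomal protein genes 0 were called and 83.3% lay below 0 (median -0.12, 4 lower and 0 higher at an unadjusted p below 0.05). Rps10 had 4505, 5563 and 5201 in transgenic mice, against 5874, 6201 and 7360 in controls (log2 -0.35, adjusted p = 0.558). Rpl13a had a difference of -0.51 with no overlap (adjusted p = 0.515). Array means of the ribosomal list overlapped, at -0.12, -0.08 and -0.14 in transgenic mice and -0.02, -0.09 and 0.10 in controls, whereas the summed signal of the list did not, at 117058 to 119270 in transgenic mice, against 123086 to 140753 in controls. Array means of the ubiquitin and proteasome list were -0.19, -0.0619 and -0.20 in transgenic mice, against 0.02, -0.0551 and 0.03 in controls, so the groups lay close but did not overlap. Its summed signal ran from 47506 to 51790 in transgenic mice, against 52310 to 57284 in controls.

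Mitochondrial genes outside the respiratory chain were collected after values had been seen and only describe the pattern. Of 16 genes for import across the mitochondrial membranes 87.5% lay below 0 (median -0.18), and of 55 mitochondrial ribosomal proteins 65.5% did (median -0.12); 0 of either were called (2 and 6 lower, and 0 of either higher, at an unadjusted p below 0.05 by limma). Chaperones and heat shock proteins, which fold new and damaged proteins, had a median of -0.19 over 17 genes, of which 0 were called and 2 were lower at an unadjusted p below 0.05. Stip1, the adaptor between Hsp70 and Hsp90, had 1168, 1459 and 1417 in transgenic mice, against 2504, 1928 and 1937 in controls (log2 -0.64, SE 0.19, adjusted p = 0.370). Hspa8, the constitutive Hsp70, had 6364, 8182 and 6910 in transgenic mice, against 8507, 8484 and 9040 in controls (log2 -0.29, adjusted p = 0.643). In both genes all transgenic mice lay below all controls. Array means of the chaperone list overlapped, at -0.26, -0.16 and -0.12 in transgenic mice, against 0.16, -0.02 and -0.13 in controls. Those of the mitochondrial ribosomal list overlapped too, at -0.15, -0.06 and -0.17 in transgenic mice, against -0.08, 0.02 and 0.06 in controls. In S46, S25 and A39 the proteasome medians were 0.12, 0.11 and 0.12 and the ribosomal medians 0.24, 0.18 and 0.23, above 0 in each. The chaperone medians there were -0.01, -0.10 and 0.11.

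**Figure D3:**
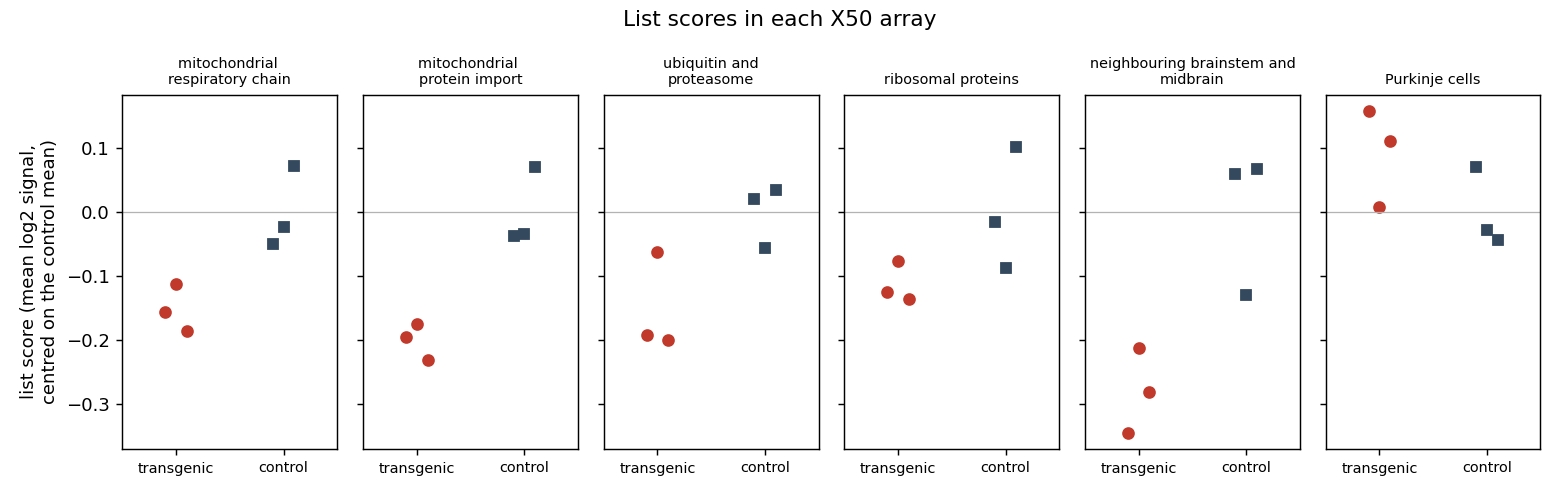
Mean log2 signal of 6 gene lists in each X50 array, centred on the control mean of the list, with transgenic mice as circles on the left and controls as squares on the right. The respiratory chain, protein import, proteasome and brainstem lists have every transgenic mouse below every control, narrowly so for the proteasome (-0.0619 against -0.0551), whereas the ribosomal and Purkinje lists overlap.

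The size of the gene moved with the same contrast. Genes were ranked by genomic span in RefSeq, which 5634 of the 5639 had. In the shortest quartile, up to 8.49 kb, the median log2 difference in X50 was -0.03 and 54.2% lay below 0. In the longest quartile, from 47.8 kb, the median was 0.04 and 43.3% lay below 0. The 27 respiratory chain genes in the shortest quartile had a median of -0.15, and the 13 in the second quartile one of -0.25, against -0.01 for all genes there. Ubiquitin and proteasome genes in the longest quartile were few, 4, and had a median of -0.21. Signal level also moved a little: of 10 classes of mean signal, the brightest had a median of -0.03, against values from -0.01 to 0.02 in the others. The order by span was not particular to X50: the A39 medians ran from -0.03 in the shortest quartile to 0.02 in the longest. Those of S46 went from 0.01 to -0.001 and those of S25 from 0.006 to 0.02.

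**Figure D4:**
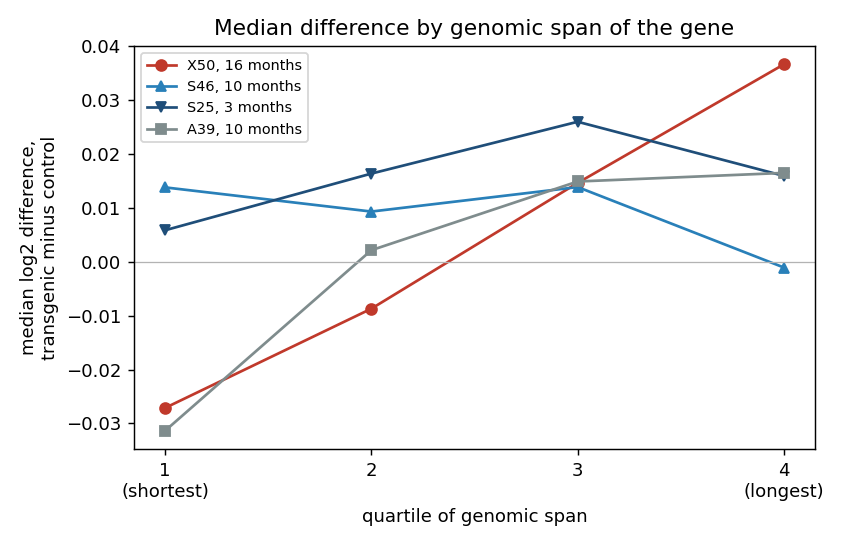
Median log2 difference, transgenic minus control, of all genes in 4 quartiles of genomic span, from the shortest to the longest, for X50 and 3 other comparisons. The X50 medians run from -0.03 in the shortest quartile to 0.04 in the longest and those of A39 from -0.03 to 0.02. All medians lie within 0.04 of 0.

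The higher probe sets, none of which passed, included 3 genes of amino acid supply, at ranks 6, 14 and 23 by p among all probe sets. Asns, asparagine synthetase, had signals of 3611, 3554 and 3385 in X50 transgenic mice, against 2280, 2324 and 2356 in controls. The groups were far apart relative to their spread (log2 0.60, SE 0.14, limma adjusted p = 0.192), and a second, dimmer probe set of the gene had a difference of 0.38 (SE 0.23). Slc1a4, a carrier of neutral amino acids including serine, had 1120, 1186 and 828 in transgenic mice, against 715, 679 and 562 in controls (log2 0.65, SE 0.17, adjusted p = 0.304). Slc7a5, the light chain of the large neutral amino acid exchanger, had 1738, 1388 and 1431 in transgenic mice, against 1193, 1155 and 962 in controls (log2 0.45, SE 0.13, adjusted p = 0.304). In all 3 genes the lowest transgenic mouse lay above the highest control. In S46, S25 and A39 the differences of Asns were 0.11, -0.18 and -0.14. The effect in X50 was higher than in S25 (limma adjusted p = 0.0309) but not shown to differ from S46 (0.489) or A39 (0.0791). The differences of Slc7a5 there were 0.29, 0.39 and 0.40, and those of Slc1a4 were 0.37, 0.37 and 0.27.

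These genes are known targets of ATF4, a transcription factor that rises when amino acids are scarce or the endoplasmic reticulum is stressed. A list of 33 tested targets and relatives, drawn up after these values had been seen, had 0 called and a median of 0.11. At an unadjusted p below 0.05 by limma it had 5 higher and 1 lower, against 211 higher and 201 lower among all 5639 genes. The 5 higher include Asns and Slc1a4, whose values were already known, so the count is a description only. Mthfd2, a mitochondrial folate enzyme, had 1102, 1181 and 1047 in transgenic mice, against 630, 734 and 551 in controls (log2 0.79, SE 0.33, adjusted p = 0.570). Iars, isoleucyl-tRNA synthetase, had a difference of 0.36 (adjusted p = 0.645), and Atf4 itself had 0.26 (adjusted p = 0.792). The low one was Ddit3, the stress-induced factor CHOP, with 429, 383 and 398 in transgenic mice, against 628, 503 and 597 in controls (log2 -0.49, adjusted p = 0.673).

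The promoters below show where an amino acid response motif falls in 3 of these genes, beside the promoter of Atp5md, the larger of the 2 falls that passed. The 300 bases run from 250 before to 50 after the RefSeq gene start on GRCm38.p6, 5′ to 3′ on the gene's strand. In Asns, Slc1a4 and Iars capitals mark matches on either strand to TGATGNAA, the core to which ATF4 complexes bind. The promoter of Atp5md was searched for another motif instead, given below the sequences. The positions are chr6:7693160-7693459, minus strand, for Asns, chr11:20332664-20332963, minus strand, for Slc1a4, chr13:49681880-49682179, plus strand, for Iars, and chr19:47090598-47090897, minus strand, for Atp5md.
Asns: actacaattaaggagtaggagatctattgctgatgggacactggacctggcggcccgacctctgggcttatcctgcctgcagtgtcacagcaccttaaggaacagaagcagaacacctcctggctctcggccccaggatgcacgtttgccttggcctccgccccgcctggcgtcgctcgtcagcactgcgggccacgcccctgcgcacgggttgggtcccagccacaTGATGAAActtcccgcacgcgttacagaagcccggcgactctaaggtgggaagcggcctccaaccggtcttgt
Slc1a4: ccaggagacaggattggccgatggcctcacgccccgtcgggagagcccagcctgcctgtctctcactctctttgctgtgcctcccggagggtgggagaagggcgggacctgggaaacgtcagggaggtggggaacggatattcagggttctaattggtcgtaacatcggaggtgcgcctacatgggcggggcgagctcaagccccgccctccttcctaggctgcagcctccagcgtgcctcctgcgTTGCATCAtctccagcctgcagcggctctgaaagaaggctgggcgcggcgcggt
Iars: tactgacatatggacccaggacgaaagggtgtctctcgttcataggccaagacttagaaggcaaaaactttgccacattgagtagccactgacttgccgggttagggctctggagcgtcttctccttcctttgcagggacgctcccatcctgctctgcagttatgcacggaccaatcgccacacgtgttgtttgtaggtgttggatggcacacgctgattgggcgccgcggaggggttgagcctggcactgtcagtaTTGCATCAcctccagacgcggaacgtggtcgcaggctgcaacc
Atp5md: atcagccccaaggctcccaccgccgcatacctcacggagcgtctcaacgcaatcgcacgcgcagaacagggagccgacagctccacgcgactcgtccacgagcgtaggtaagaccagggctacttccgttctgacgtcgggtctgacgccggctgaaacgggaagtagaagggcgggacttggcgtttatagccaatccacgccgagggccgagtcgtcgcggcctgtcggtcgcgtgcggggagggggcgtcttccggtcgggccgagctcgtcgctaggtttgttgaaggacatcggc
The match starts 23 bases before the gene start in Asns, 4 bases before it in Slc1a4 and 7 bases after it in Iars. The motif lay in 10 of the 28 listed targets with a promoter in the table, against 3.97% of all 32851 promoters, and in 0 of 38 respiratory chain genes. The promoter of Atp5md held no match to the palindromic NRF1 motif, bound by a regulator of nuclear genes for mitochondria. That motif lay in 3 of the 38 respiratory chain genes and in 0.971% of all promoters. Asns, Slc1a4 and Iars were among the 10 targets with the amino acid response motif. A gene was counted when any of its promoters matched, whereas the shares over all promoters are of single promoters. The targets were listed as known ATF4 targets, so their many matches are no result of X50. These matches are letters in a window and describe no binding in these mice.

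The remaining high probe sets were of mixed function and none passed. Gdap10 had 556, 498 and 624 in transgenic mice, against 310, 343 and 295 in controls (log2 0.78, SE 0.18, limma adjusted p = 0.154). Mdm2, the ubiquitin ligase that restrains p53 and is itself a p53 target, had 588, 686 and 610 in transgenic mice, against 474, 367 and 370 in controls (log2 0.62, adjusted p = 0.295). The 9 p53 targets tested, Mdm2 included, had a median of 0.05 and 0 calls (1 higher and 0 lower at an unadjusted p below 0.05). Nfib and Zbtb20, transcription factors of neural development, had differences of 0.43 and 0.61, and a second probe set of Nfib had 0.43 as well. R3hdm1 and Tmem245 had 0.81 and 0.85, Cbfa2t3, a transcriptional corepressor, had 0.46 and Denn2b 0.68. Pdlim1, a cytoskeletal adaptor, had 1.096 in 1 probe set and -0.02 in another, so its 2 probe sets disagreed.

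The endogenous gene was measured by 2 probe sets for mouse Htt, and whether they detect the transgene is not given in the sources used here. The brighter one had 1976, 1979 and 1765 in transgenic mice, against 1401, 1891 and 1697 in controls (log2 0.20, SE 0.13, limma adjusted p = 0.806). The dimmer one had 836, 592 and 704 in transgenic mice, against 519, 608 and 464 in controls (log2 0.40, SE 0.16, adjusted p = 0.560). Both pairs of groups overlapped, so neither serves as a check of the genotype labels.

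How did Purkinje cell genes fare in X50, compared with the lines that carry 142 glutamines? In X50 none of 13 markers was called (0 by limma, with 2 higher and 0 lower at an unadjusted p below 0.05). Their median log2 difference was 0.12, and the summed signal ran from 75552 to 79931 in transgenic mice, against 73653 to 78402 in controls. Calb1 differed by 0.09 (SE 0.11, 95% interval -0.13 to 0.30). Rgs8, a regulator of G protein signalling, had 5028, 5106 and 5440 in transgenic mice, against 4939, 4388 and 3870 in controls (log2 0.24, SE 0.12, adjusted p = 0.663), with no overlap. Cacna1a, the pore of P/Q-type calcium channels, had a difference of 0.27 with no overlap (adjusted p = 0.645). Pcp2, a G protein modulator found almost only in Purkinje and bipolar cells, had -0.03 (SE 0.22) in its brighter probe set and 0.18 in the other.

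In S46, S25 and A39 the medians of the same 13 markers were -1.02, -1.82 and -0.83. Against S46 the X50 effect was higher for 6 of the 13, where 0.47% of all 7453 probe sets were called higher. Against S25 it was higher for 11 of 13 (background 1.1%), and against A39 for 5 of 13 (background 0.51%), and lower for 0 of 13 in each. All 3 tests use the same X50 arrays, so they are not independent of each other. Rgs8, Slc1a6, Homer3, Calb1 and Ppp1r17 were called in all 3. Slc1a6, the Purkinje glutamate transporter, had 3812, 2855 and 2954 in X50 transgenic mice, against 2982, 2357 and 2592 in X50 controls. Its X50 effect of 0.27 stood against -1.16 in S46, -2.25 in S25 and -1.04 in A39 (differences 1.43, 2.53 and 1.31, adjusted p = 0.000328, 8.33e-10 and 0.00110). Homer3, a scaffold of metabotropic glutamate receptors, had an X50 effect of 0.12 (SE 0.14), against -1.19, -1.82 and -1.26. In bulk tissue, fewer cells of a type and less RNA per cell cannot be told apart.

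Over all probe sets 38 of 7453 (0.51%) differed between the X50 and S46 effects, 35 higher (0.47%) and 3 lower (0.0403%) in X50. Against S25 there were 123 (1.65%), 82 higher (1.1%) and 41 lower (0.55%), and against A39 48 (0.644%), 38 higher (0.51%) and 10 lower (0.134%). Cck, the neuropeptide cholecystokinin, gave the greatest difference from both NLS lines with 142 glutamines. Its signals were 1783, 1787 and 1940 in X50 transgenic mice, against 1498, 2129 and 1442 in X50 controls, which overlap (log2 0.14, SE 0.26). The X50 effect exceeded that of S46 by 2.00 (adjusted p = 0.00155) and that of S25 by 3.62 (adjusted p = 3.98e-09). Atp2a3, a calcium pump of the endoplasmic reticulum in Purkinje cells, had an X50 effect of 0.22, against -1.23, -2.003 and -1.11. Car8, an inhibitor of the inositol trisphosphate receptor, differed from S25 by 2.58 (adjusted p = 1.74e-06) with an X50 effect of 0.20 (SE 0.24). Nab2, a corepressor of EGR factors, had -0.01 (SE 0.20) in X50, against -1.07 in S46, -1.33 in S25 and -1.66 in A39.

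On the lower side stood Basp1, a membrane protein of growing axons, with 814, 1118 and 673 in X50 transgenic mice, against 938, 881 and 1298 in X50 controls (log2 -0.26, SE 0.27). Its X50 effect minus that of S46, S25 and A39 was -1.85, -2.22 and -1.56 (limma adjusted p = 0.00759, 0.000235 and 0.0377), and a second probe set did not pass in any. Atp5md was lower than in each of the 3 (differences -1.15, -1.02 and -0.99, adjusted p = 0.00578, 0.00926 and 0.0270), which rests on its fall in X50. C1qa and C1qb, complement proteins made by microglia, were lower than in S25 (differences -1.38 and -1.79), with X50 effects of 0.26 (SE 0.19) and -0.04 (SE 0.27). The 11 microglia and macrophage genes had a median of 0.10 in X50 with 0 called (0 in either direction at an unadjusted p below 0.05 by limma), against 0.23 in S46, 0.94 in S25 and 0.55 in A39. Gfap, the astrocyte intermediate filament, had 1222, 1265 and 967 in X50 transgenic mice, against 820, 813 and 970 in X50 controls (log2 0.40, SE 0.17, adjusted p = 0.570), and the groups overlapped. Its second, dimmer probe set had 0.73 (SE 0.45, adjusted p = 0.804), with every transgenic mouse above every control.

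**Figure D5:**
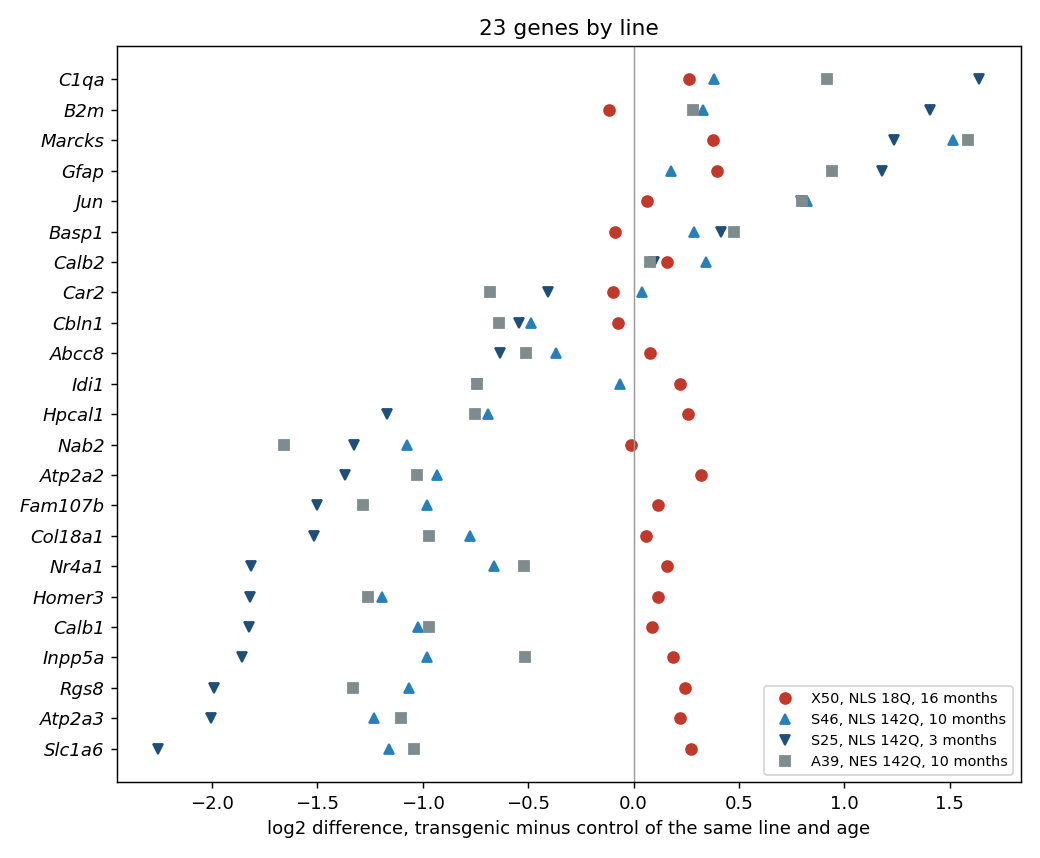
Log2 differences, transgenic minus control of the same line and age, of the 23 genes that earlier results of these data had shown to change in lines with 142 glutamines; circles are X50 and the other symbols S46, S25 and A39. X50 lies between -0.12 and 0.40 for every gene, whereas Slc1a6 reaches -2.25 and C1qa 1.64 in S25.

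The 23 genes in the plot by line were chosen because they changed in the lines with 142 glutamines, so their values there are a description. In X50, which was not among the lines used for that choice, 0 of the 23 were called (2 higher and 0 lower at an unadjusted p below 0.05 by limma) and the median was 0.16. For S46, S25 and A39 the medians were -0.66, -1.17 and -0.68. Marcks, which ties membranes to the actin skeleton, had 0.38 (SE 0.22) in X50, against 1.51, 1.24 and 1.59, and Jun had 0.06 (SE 0.24), against 0.82, 0.79 and 0.80. Neither gene passed a test of the difference (limma adjusted p of 0.0621 or more for Marcks and 0.407 or more for Jun).

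Markers of other cells and of neighbouring tissue were followed for differences in dissection. Of 7 genes of brainstem and midbrain neurons 0 were called, with 1 lower at an unadjusted p below 0.05 (median log2 difference -0.26). Nefh, the heavy neurofilament, had 1350, 1625 and 1178 in transgenic mice, against 1993, 1716 and 2092 in controls (log2 -0.48, SE 0.17, limma adjusted p = 0.551). Th, tyrosine hydroxylase of catecholamine neurons, had 266, 145 and 210 in transgenic mice, against 348, 358 and 355 in controls (log2 -0.76, SE 0.40). In both genes and in the list's mean the groups did not overlap, with list means of -0.34, -0.21 and -0.28 in transgenic mice, against 0.06, -0.13 and 0.07 in controls. The summed signal of these 7 genes ran from 3387 to 4136 in transgenic mice, against 4176 to 5027 in controls. Not all members lay low: Nefm and Nefl, the other neurofilaments, had differences of -0.54 and -0.26 with overlapping groups, and Sncg, Slc6a4 and Slc6a2 had 0.05, 0.02 and 0.02. In all, 57.1% of the 7 lay below 0, against 49.2% of all genes. The list's mean separated the same groups as that of the respiratory chain, and its part in that result was not tested. Choroid plexus genes had a median of 0.42 over 5 genes with overlapping groups, and Ttr varied within a genotype, at 4264, 4381 and 2739 in transgenic mice and 4029, 3747 and 1086 in controls. Hba-a1, alpha globin, had 7554, 9079 and 11209 in transgenic mice, against 6550, 3931 and 4948 in controls (log2 0.86, SE 0.43, adjusted p = 0.681).

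Granule cell genes had a median of -0.02 over 13, oligodendrocyte genes 0.03 over 12 and Bergmann glia and astrocyte genes 0.11 over 15, with 0 called in each by limma. At an unadjusted p below 0.05 these 3 lists held 1, 0 and 1 higher and 0, 0 and 1 lower genes. Nfix, a transcription factor of granule cells, was the high one, with 3749, 3333 and 3691 in transgenic mice, against 2927, 2579 and 2405 in controls (log2 0.45, SE 0.15, adjusted p = 0.515), while its dimmer probe set had -0.30. Of 10 genes known to fall in the striatum in Huntington's disease 0 were called. Their median was 0.055, with 6 above 0 and 4 below. At an unadjusted p below 0.05, 0 were higher and 2 lower, Hpca and Penk. Penk, the enkephalin precursor, had 3877, 3228 and 3235 in transgenic mice, against 5540, 4605 and 5117 in controls (log2 -0.56, SE 0.18, adjusted p = 0.515), and its second probe set had -0.03. Among 18 synaptic vesicle genes 0 were called and 2 were lower at an unadjusted p below 0.05: Nsf, the ATPase that takes SNARE complexes apart, with 2390, 2202 and 2035 in transgenic mice, against 3444, 2862 and 3215 in controls (log2 -0.52, SE 0.17, adjusted p = 0.515), and Vamp1 (-0.65, SE 0.26). In nuclear transport, the compartment the signal addresses, 21 genes had a median of 0.0043 and 0 calls, with 0 higher and 2 lower at an unadjusted p below 0.05. These were Ran, the GTPase that drives import and export (log2 -0.22, SE 0.10), and Lmna, lamin A (-0.29, SE 0.13). A second, dimmer probe set of Lmna had 0.13 (SE 0.42).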

How the data were processed

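Total RNA from the cerebellum was hybridised to 48 arrays in 14 groups of 5 lines. The deposited values are intensity signals per probe set on a linear scale, made with MAS5 per the submitters' processing notes, and their 2% trimmed mean was near 500 on every array, so they had already been scaled by the authors. Per the labels, each array was 1 mouse. Of 12488 probe sets, 10855 had 1 gene symbol, 396 several and 1237 none listed, and names were updated by gene identifier for 10839. Signals were analysed as log2(signal + 18.7), where 18.7 is the 10th percentile, after removing probe sets below the 40th percentile of mean signal and 66 control probe sets, which left 7453 (5639 genes, each by its brightest probe set in lists). The pseudocount understates differences of dim genes.

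All 48 arrays were fitted with limma 3.58.1 in R 4.3.3 as 14 group means, with 34 residual and 3.73 prior degrees of freedom. Each difference is transgenic minus control of the same line and age, and a call is a Benjamini-Hochberg adjusted p below 0.05. The X50 effect minus that of S46, S25 or A39 was tested in the same fit. Named genes were, in each direction of the X50 contrast, those called and then the lowest p up to 12 (1 symbol, groups not overlapping), Htt, the called members of each list or else its 2 lowest p, up to 6 called each way for each difference, and the genes changed in the lines with 142 glutamines. A few others were named after their values were seen to show the range of a list. The members, the 29 lists and the 3 lists added later were chosen with earlier results of these data known. On data simulated for the X50 comparison over 7453 probe sets, 81% of 100 changes of log2 size 1 and 94% of 100 of size 2 were recovered, with 20 false calls. In this 1 simulation the false calls were a larger share of all calls than the 0.05 that the threshold aims at. The simulation held many true changes, which loosens the adjusted threshold. The shares recovered therefore do not state what could be recovered in X50, where 2 probe sets passed. Precision is limited by 3 arrays per group. Alternatives changed the pseudocount, filter, scaling, weights, covariates, blocks and arrays. Promoters are RefSeq's on GRCm38.p6. Figures were drawn with matplotlib 3.10.9.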

Additional observations from a re-analysis of the deposited data

Results flagged for a closer look

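These results stand out because a test of the difference between 2 effects passed, that of X50 minus that of another line, each transgenic minus control. Against S46 38 probe sets passed. The 6 highest were Cck (log2 difference 2.00), Ppp1r17 (1.52), Pcp2 (1.47), Atp2a3 (1.45), Slc1a6 (1.43) and Kalrn (1.34), and the lowest were Basp1 (-1.85), Atp5md (-1.15) and Tmsb4x (-0.86). Of these 9, Atp5md alone was also called within X50. Pcp2 passed against S46 in its dimmer probe set only. The brighter one had log2 differences of -0.03 in X50 and -0.37 in S46, and its test did not pass.

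Against S25 123 passed. The highest were Cck (3.62), Col18a1 (2.65), Car8 (2.58), Slc1a6 (2.53), Tyms-ps (2.38) and Atp2a3 (2.38), and the lowest Basp1 (-2.22), Trp53i13 (-1.95), C1qb (-1.79), B2m (-1.52), H1f2 (-1.52) and C1qa (-1.38). The Tyms-ps value is of a dim probe set, which had a log2 difference of 0.78 (SE 0.39) within X50. Its brighter probe set had 0.14 (SE 0.35) there.

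Against A39 48 passed. The highest were Col18a1 (2.26), Nab2 (1.65), Ackr1 (1.61), Rgs8 (1.58), Fam107b (1.40) and Homer3 (1.37), and the lowest Basp1 (-1.56), Nfyb (-1.40), Dctn6 (-1.19), Strn (-1.002), Atp5md (-0.99) and Taf10 (-0.88). The second probe set of Basp1 gave -0.38, -0.51 and -0.57 against S46, S25 and A39 and did not pass. The Col18a1 values against S25 and A39 are of dim probe sets. Its brightest one differed by 1.57 from S25 (limma adjusted p = 0.000217) and by 1.03 from A39, which did not pass (0.0621). Age, sex and the day of scanning also differ between these comparisons, and their part cannot be told apart.

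Several of these calls were lost under alternative settings. Kalrn against S46 was called in 10 of 19. Against S25, Trp53i13 was called in 9 of 19, Col18a1 in 11 of 19 and B2m in 12 of 20. Against A39, Strn was called in 8 of 19, Basp1 in 13 of 20, Nfyb and Atp5md in 14 of 20, and Dctn6 and Taf10 in 15 of 20. The other named differences were called in 17 or more of their 19 or 20 settings.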

How the results depend on the processing

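No called value changed sign. Over 21 alternatives Atp5md was called in 14 and Ndufb9 in 8, and for both the log2 difference stayed below 0. The X50 count of 2 became 1 with no filter, with sex as a covariate, with the scan day as a block and with the chip lot as a block, and 0 with only the X50 arrays, with the fluidics station as a block and with the replicate block. It became 11 with array weights (5 higher, 6 lower), and leaving out 1 X50 array gave 0 to 3. Within station 1, chosen after the data were seen, 3 were called, all higher. The count against S46 became 157 with array weights and 25 with the replicate block, and leaving out 1 X50 array gave 30 to 41. Against S25 it became 196 with array weights and 77 with only the arrays compared, and leaving out 1 X50 array gave 88 to 117. Against A39 it became 76 with quantile normalization and 300 with array weights, and leaving out 1 X50 array gave 28 to 52, with 28 without X50 transgenic mouse 3 and 31 without X50 control mouse 3. The replicate numbers did not pair the X50 arrays, since same-numbered deviations correlated at 0.06, 0.00 and -0.04. With 3 arrays per group and a median SE of 0.19, small differences were not detectable at this precision.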

Other observations

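Gas5, a host gene of small nucleolar RNAs, was picked after its values were seen because of the size of its difference. One of its probe sets had signals of 1563, 3480 and 2735 in X50 transgenic mice, against 468, 468 and 1812 in X50 controls (log2 1.71, SE 0.71, limma adjusted p = 0.563). The groups overlapped and it did not pass.

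Immediate early genes, which neurons switch on after activity, had a median log2 difference of 0.19 over 16 genes in X50, with 0 called (0 in either direction at an unadjusted p below 0.05 by limma). Their medians were -0.10 in S46, -0.06 in S25 and -0.09 in A39. Histone and chromatin regulator genes had a median of 0.14 over 19, with 0 called and 1 higher and 1 lower at an unadjusted p below 0.05.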
